A study of Mus musculus with 12 samples.

Results

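The 32 genes described here encode the enzymes, carriers and organelle proteins of fatty acid oxidation and ketogenesis in the mouse liver. They were chosen by name, as mitochondrial and peroxisomal members of this pathway, out of 52636 annotated genes, and all 32 passed the filter on low counts that left 12453 genes for testing. Liver RNA-seq was available from 12 male C57Bl/6J mice at 16 weeks of age, with 1 library per mouse. The 6 VDD-F1 mice were born to dams on a vitamin D deficient diet with added calcium gluconate, and the 6 VDS-F1 mice to dams on the matched sufficient diet. The dams' diets ran from before mating until delivery, and all offspring ate the sufficient diet after weaning. The mice carried no engineered allele. Which mice shared a litter or a dam was not given, so p-values below treat each mouse as independent. The comparison asks whether the prenatal diet left a difference in these transcripts in the adult liver.

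Fatty acids enter oxidation as acyl-CoA esters. Acyl-CoA synthetases make the esters, the carnitine shuttle carries the long chains into the mitochondrion, and a repeating cycle of dehydrogenation, hydration, dehydrogenation and thiolysis shortens the chain to acetyl-CoA. Electrons from the cycle pass through the electron transfer flavoprotein to the respiratory chain. Very long and branched chains are shortened in peroxisomes, and thioesterases release free acids from acyl-CoA. Hepatocytes turn part of the acetyl-CoA into ketone bodies for other tissues, above all in fasting. Many of these genes are known targets of the nuclear receptor PPARα, which binds DNA with RXR at direct repeats of the letters AGGTCA spaced by a single base.

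Between 14275793 and 20815066 fragments per library were counted on genes. Values per mouse are given as CPM, counts scaled to a common library size after TMM normalization with edgeR. The lowest count of any member in any mouse was 18, so each member was detected in every liver. In VDS6, 11.1% of fragments lay outside genes, and in the other 11 libraries 2.52% to 4.94% did. Hepatocyte markers summed to 116000 to 136000 CPM in VDD-F1 and 105000 to 126000 CPM in VDS-F1, and 5 of 6 muscle and kidney markers had at most 3 counts over the 12 libraries together.

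The members ranged widely in level. Divided by exon length, Acaa1b was the highest at 451 ± 127 CPM per kilobase (mean and SD over 12 mice), followed by Acaa2 at 379 ± 44.1. Acaa1b encodes a peroxisomal thiolase and Acaa2 the mitochondrial thiolase that ends the cycle for medium chains. Acadvl at 112 ± 13.6 and Acsl1 at 111 ± 29.9 came next, and the lowest levels were those of Acot2 at 2.70 ± 1.33 and Acot3 at 0.818 ± 0.353. Of the 31 steps between neighbors in this order, 2 were wider than the SDs of both genes together, that from Acaa2 to Acadvl and that from Acot2 to Acot3. All other neighbors in the order lay within their spread. The level of Etfb, 8.43 ± 2.35 CPM per kilobase, is uncertain, since 58.2% of its exon bases are also exons of other genes on the same strand in GENCODE M21. A fragment in exons of several genes is assigned to none, and whether GENCODE M15, on which the counts were made, holds the same overlap was not checked. Reads of near-identical copies can also be lost or split. Of the 100-base stretches in its transcripts, Acaa1b shared 26.0% with other genes, mainly Acaa1a, and Acot2 shared 17.1% with Acot1.

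**Figure D1:**
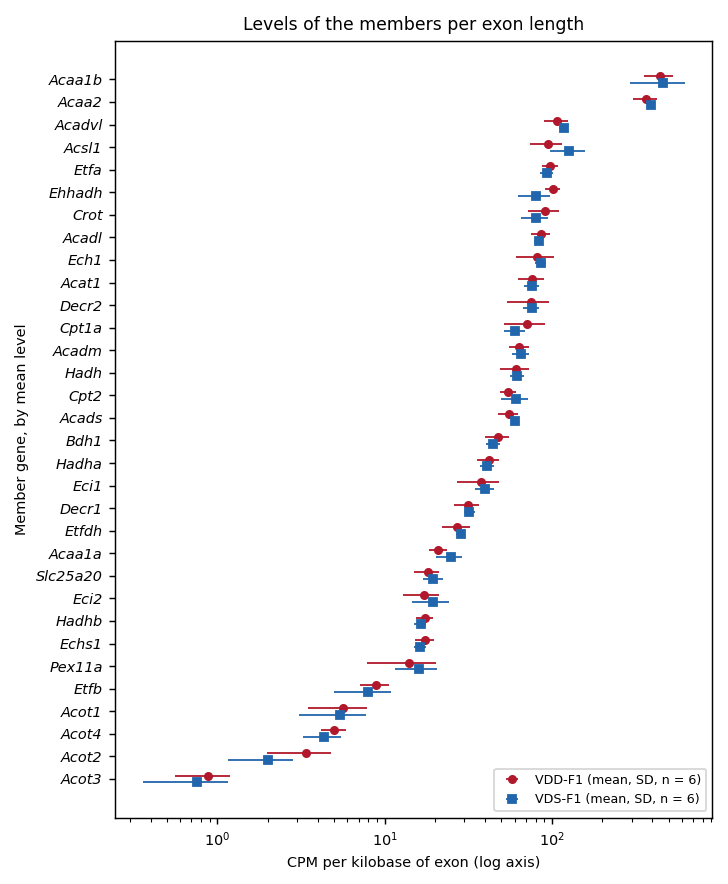
Mean level of each member in VDD-F1 (circles) and VDS-F1 (squares), in CPM per kilobase of exon on a log axis, with bars for the SD over 6 mice. The 2 groups lie on top of each other for most members, from Acaa1b at 451 down to Acot3 at 0.818 over all 12 mice.

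Several members sit next to each other in the genome. Acot1, Acot2, Acot3 and Acot4 lie together on the plus strand of chromosome 12, where Acot2 spans chr12:83987861-83993873 and Acot3 chr12:84052144-84060402 (GRCm38). Hadha (minus strand) and Hadhb (plus strand) encode the subunits of the mitochondrial trifunctional protein and point away from each other on chromosome 5. The 85 bases between their GENCODE starts, at chr5:30155163-30155247 on the plus strand, are shown because they are all that separates both genes.
Hadha-Hadhb: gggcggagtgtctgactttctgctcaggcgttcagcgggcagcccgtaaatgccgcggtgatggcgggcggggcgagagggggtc

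RefSeq promoters on GRCm38.p6 (250 bases before to 50 after a start) were found for 29 of the 32 members, 32 promoters in all. The single site AGGTCA, on either strand, was present in 7 of them (21.9%) and in 16.3% of all 32851 promoters. The direct repeat AGGTCANAGGTCA was present in 0 of the members' promoters without mismatch and in 0.0396% of all promoters. With up to 2 mismatches it was present in 4 (12.5%), those of Slc25a20, Echs1, Etfa and Acot4, and in 3.86% of all promoters. Single sites inside a repeat are counted in both searches. The 250 bases before the start are shown for Acot4 and Etfa, where capitals mark the match to the repeat, and for Acot2 and Pex11a, on which results between sets of mice turn and which hold neither motif in these letters. A match is a description of the letters and not evidence of binding. The windows are chr12:84038129-84038378 (plus strand) for Acot4, chr9:55512244-55512493 (minus strand) for Etfa, chr12:83987611-83987860 (plus strand) for Acot2 and chr7:79743132-79743381 (minus strand) for Pex11a.
Acot4: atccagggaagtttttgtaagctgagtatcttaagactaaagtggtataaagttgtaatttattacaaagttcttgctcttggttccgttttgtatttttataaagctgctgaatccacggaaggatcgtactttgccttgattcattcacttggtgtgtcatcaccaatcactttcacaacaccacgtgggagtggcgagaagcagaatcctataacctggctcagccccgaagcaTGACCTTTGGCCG
Etfa: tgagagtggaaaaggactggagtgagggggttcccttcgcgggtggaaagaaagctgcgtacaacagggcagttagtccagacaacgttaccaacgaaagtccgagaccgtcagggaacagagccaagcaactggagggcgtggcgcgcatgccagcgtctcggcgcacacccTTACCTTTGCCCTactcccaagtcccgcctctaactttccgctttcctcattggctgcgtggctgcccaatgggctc
Acot2: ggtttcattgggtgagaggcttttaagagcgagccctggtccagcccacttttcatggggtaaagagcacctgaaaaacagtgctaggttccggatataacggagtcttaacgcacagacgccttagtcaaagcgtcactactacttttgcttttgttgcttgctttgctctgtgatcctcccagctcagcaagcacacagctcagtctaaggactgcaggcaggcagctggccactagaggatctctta
Pex11a: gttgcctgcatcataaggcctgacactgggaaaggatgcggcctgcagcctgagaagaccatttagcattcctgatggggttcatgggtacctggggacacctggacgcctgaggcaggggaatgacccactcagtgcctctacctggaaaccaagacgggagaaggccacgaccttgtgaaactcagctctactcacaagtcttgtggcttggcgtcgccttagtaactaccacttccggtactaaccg

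None of the 32 members was called between VDD-F1 and VDS-F1 mice by the quasi-likelihood test of edgeR after Benjamini-Hochberg adjustment, at an adjusted p under 0.05 and a log2 fold change beyond 1 in either direction, where 0.0402% of all genes (5 of 12453) were called. DESeq2's Wald test also called 0 of the 32 members, against 2.03% of all genes. In edgeR 1 member was lower in VDD-F1 at an unadjusted p under 0.05, Acsl1, against 6.29% of all genes. At the same threshold 2 were higher, Ehhadh and Acot2, against 9.55% of all genes. The median log2 fold change over the members was -0.02, with 15 above and 17 below 0, and that over all genes tested was 0.00. The values of the groups overlapped for every member, while 0.570% of all genes had all VDD-F1 values below, and 0.610% all VDD-F1 values above, those of VDS-F1. The shares of members were thus near or under those of all genes.

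**Figure D2:**
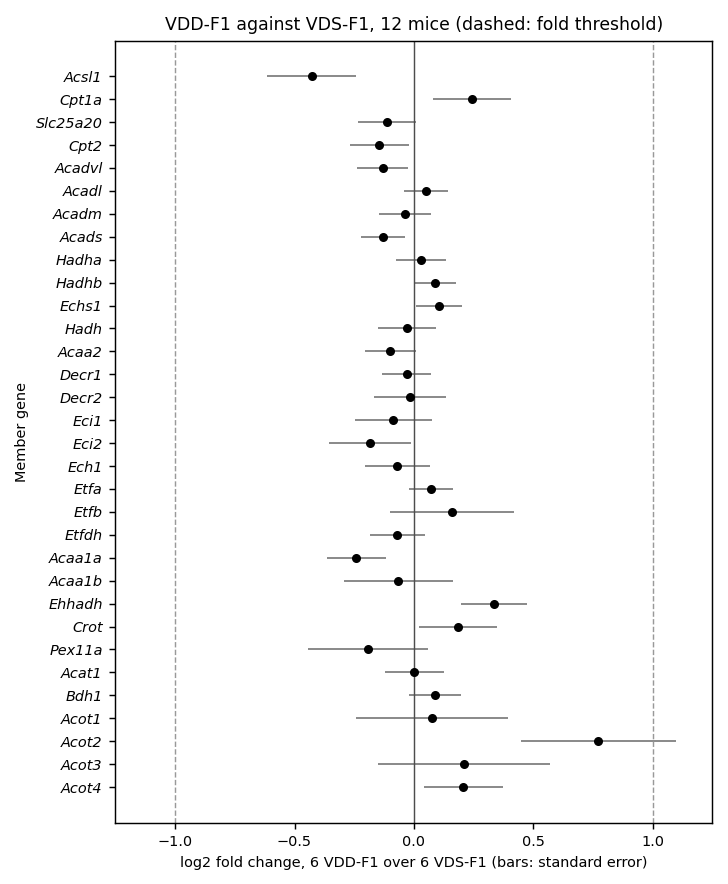
Log2 fold change of each member in 6 VDD-F1 over 6 VDS-F1 mice (points) with its standard error (bars), with dashed lines at the fold threshold. Estimates run from -0.43 for Acsl1 to 0.77 for Acot2, and none reaches a dashed line.

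The genes of fatty acid activation and the carnitine shuttle held the member with the lowest fold change. Acsl1, which makes acyl-CoA from long-chain fatty acids, had a lowest, median and highest value of 603, 1064 and 1168 CPM in VDD-F1 and of 866, 1474 and 1617 CPM in VDS-F1. Its log2 fold change was -0.43 (SE 0.19, adjusted p = 0.284 by the edgeR test). The VDD-F1 median lay below the VDS-F1 median, and the ranges overlapped. Cpt1a, whose product makes acylcarnitine on the outer mitochondrial membrane and controls the rate of entry, ranged from 385 to 777 CPM in VDD-F1 and from 370 to 556 CPM in VDS-F1 (log2 fold change 0.24, SE 0.16, adjusted p = 0.497). Slc25a20, the carrier that exchanges carnitine and acylcarnitine, had a mean of 87.8 ± 15.03 CPM in VDD-F1 and 95.0 ± 12.8 CPM in VDS-F1 (SD, n = 6 each). For Cpt2, which turns acylcarnitine back into acyl-CoA, the means were 131.5 ± 15.02 and 145.3 ± 26.4 CPM.

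The mitochondrial cycle itself differed little between the groups. The acyl-CoA dehydrogenases take the first step, each for a range of chain lengths, and their log2 fold changes lay between -0.13 for Acadvl (very long chains) and 0.05 for Acadl (long chains), with Acadm (medium chains) at -0.04 and Acads (short chains) at -0.13. Hadha had a lowest, median and highest value of 315, 355 and 455 CPM in VDD-F1 and of 318, 364 and 408 CPM in VDS-F1. Its partner Hadhb had 105.7, 110.6 and 141 CPM in VDD-F1 and 97.2, 109.6 and 118 CPM in VDS-F1. The medians of both genes were close in the groups, and the highest value of each was that of VDD3. Log2 fold changes were 0.10 for the enoyl-CoA hydratase Echs1, -0.03 for the hydroxyacyl-CoA dehydrogenase Hadh and -0.10 for Acaa2, with adjusted p-values of 0.631, 0.941 and 0.697 in edgeR.

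The auxiliary enzymes, which prepare the double bonds of unsaturated fatty acids for the cycle, all had estimates slightly below 0. These ran from -0.02 for the peroxisomal dienoyl-CoA reductase Decr2 to -0.19 for the enoyl-CoA isomerase Eci2. The mitochondrial reductase Decr1 had -0.03, the isomerase Eci1 -0.09 and the dienoyl-CoA isomerase Ech1 -0.07. None was within reach of the threshold, with adjusted p-values in the edgeR test of 0.640 for Eci2 and higher for the other 4. Electron transfer genes were likewise close. Etfa and Etfb encode the subunits of the electron transfer flavoprotein, with log2 fold changes of 0.07 (SE 0.09) and 0.16 (SE 0.26), and the ubiquinone oxidoreductase gene Etfdh had -0.07 (SE 0.12).

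Among the genes of peroxisomal oxidation, Ehhadh was the most different. Ehhadh, the bifunctional enzyme that hydrates and dehydrogenates in the peroxisomal cycle, had a lowest, median and highest value of 264, 304 and 343 CPM in VDD-F1 and of 166, 252 and 308 CPM in VDS-F1, with a log2 fold change of 0.34 (SE 0.14, adjusted p = 0.258, edgeR). The 2 lowest of the 12 values were those of VDS2 and VDS1. Of the peroxisomal thiolases, Acaa1a had a log2 fold change of -0.24 (SE 0.12, adjusted p = 0.367) and Acaa1b of -0.06 (SE 0.23). Acaa1b spread over 453 to 1340 CPM in VDS-F1 alone, a range that held all VDD-F1 values. Crot, which links medium-chain acyl groups to carnitine for export from peroxisomes, had 0.18 (SE 0.16), and Pex11a, a factor of peroxisome division, had -0.19 (SE 0.25).

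Both genes of ketone body metabolism were alike in the groups. Acat1, the mitochondrial acetoacetyl-CoA thiolase, averaged 287.4 ± 50.3 CPM in VDD-F1 and 286.9 ± 29.7 CPM in VDS-F1. Bdh1, which interconverts acetoacetate and 3-hydroxybutyrate, averaged 185 ± 30.3 and 174 ± 16.2 CPM. The acyl-CoA thioesterases, in contrast, held the highest fold change. Acot2, the mitochondrial thioesterase, had a lowest, median and highest value of 4.52, 6.20 and 12.4 CPM in VDD-F1 and of 1.89, 5.21 and 6.37 CPM in VDS-F1 (1.71-fold, log2 fold change 0.77, SE 0.33, adjusted p = 0.269, edgeR). Its 3 highest values were those of VDD2, VDD1 and VDD3 and its 2 lowest those of VDS2 and VDS1. The cytosolic thioesterase Acot1 and the peroxisomal Acot3 and Acot4 had log2 fold changes of 0.08, 0.21 and 0.21, with adjusted p-values of 0.939, 0.824 and 0.579 in the edgeR test.

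Single mice stood lowest or highest for many members at once. The same counts were not made over all genes, so whether they are particular to the members was not tested. VDD2 was the lowest VDD-F1 mouse for 19 of the 32 members and the lowest of all 12 mice for 15, and VDD3 was the highest VDD-F1 mouse for 15 and the highest of all 12 for 14. In VDS-F1, VDS1 or VDS2 was the lowest mouse for 26 members, and both lay under each of the other 4 VDS-F1 mice for 20. Summed over all members, VDD2 had 6373 and VDD3 8684 CPM, the ends of the VDD-F1 range, and VDS2 and VDS1 had 6477 and 6574 CPM where the other VDS-F1 mice had 7964 to 8668 CPM. VDD2 also had the highest sums of stellate cell (912 CPM), macrophage (324), cholangiocyte (116) and lymphocyte (29.8) markers of the 12 mice, and the lowest sum of hepatocyte markers in VDD-F1 (115800 CPM, where VDS3 to VDS6 had 104500 to 113100 CPM). In bulk liver RNA, fewer hepatocytes and less of a transcript per hepatocyte cannot be told apart. Without VDD2, the groups did not overlap for 0 members and for 187 of all 12453 genes tested.

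**Figure D3:**
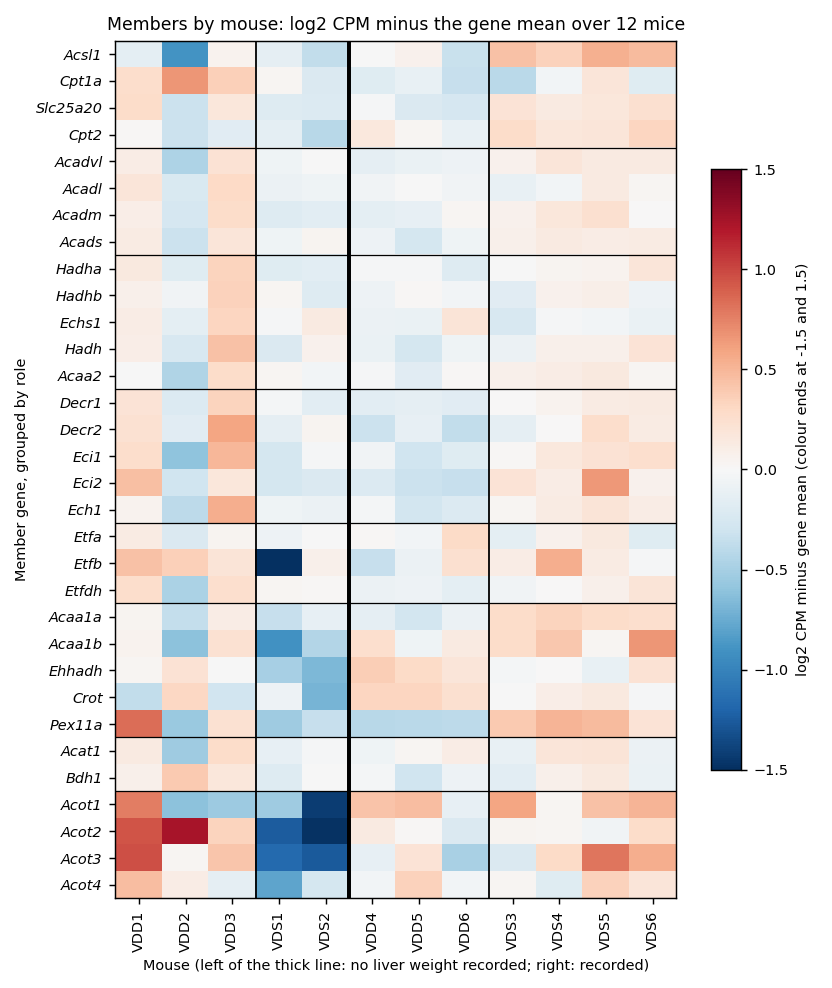
Log2 CPM of each member in each mouse minus the member's mean over the 12 mice, in color, with members in rows by role and mice in columns by set and group. The columns of VDD2, VDS1 and VDS2 are blue for many members and that of VDD3 is red, and Acot2 goes from dark red in VDD2 to dark blue in VDS2.

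The study's supplementary histology record lists liver weights for VDD4, VDD5, VDD6 and for VDS3 to VDS6, 7 mice in all, and none for VDD1 to VDD3, VDS1 and VDS2, 5 mice. The sample labels name no such sets, and what else set them apart is not stated. With the diet in the fit, 0 members passed an adjusted p under 0.05 between these sets in edgeR, against 0.899% of all genes higher and 1.56% lower in the recorded set. At an unadjusted p under 0.05, 6 members were higher in the recorded set (Acsl1, Cpt2, Acaa1b, Ehhadh, Crot and Acot1), against 5.87% of all genes, and 1 was lower (Cpt1a), against 7.99%. Ehhadh had the smallest adjusted p of the 32, 0.0719, with a log2 difference of 0.39.

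The diet difference was estimated lower in the recorded than in the unrecorded set for nearly all members. In a fit of diet, set and their product, the estimate of how the diet difference changed from the unrecorded to the recorded set was below 0 for 30 of the 32 members and for 50.9% of all genes. At an unadjusted p under 0.05, the diet difference was lower in the recorded set for 16 members, against 4.77% of all genes, and higher for 0 members, against 4.24%. After Benjamini-Hochberg adjustment of the edgeR test over all genes, 1 member remained, Acot2, where 0.0883% of all genes (11) did. On leaving out single mice this count was 0 without any 1 of VDD4 to VDD6 or VDS1 to VDS5, 1 without VDD1, VDD3 or VDS6, and 10 without VDD2, against 2.68% of all genes in that fit. VDD2 was the lowest VDD-F1 mouse for 19 members and the highest for Acot2 (12.4 CPM). Why the count rose without VDD2 was not tested. The median of this estimate was -0.45 on the log2 scale over the members and -0.01 over all genes. The 2 members with estimates above 0 were Echs1 at 0.06 and Etfa at 0.08. The 16 members were Cpt1a and Slc25a20 of the shuttle, Acadm and Hadha of the cycle, Decr1, Decr2 and Eci2 of the auxiliaries, Etfb of electron transfer, Acaa1a, Acaa1b, Ehhadh and Pex11a of the peroxisome, the ketone body gene Bdh1, and the thioesterases Acot2, Acot3 and Acot4.

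**Figure D4:**
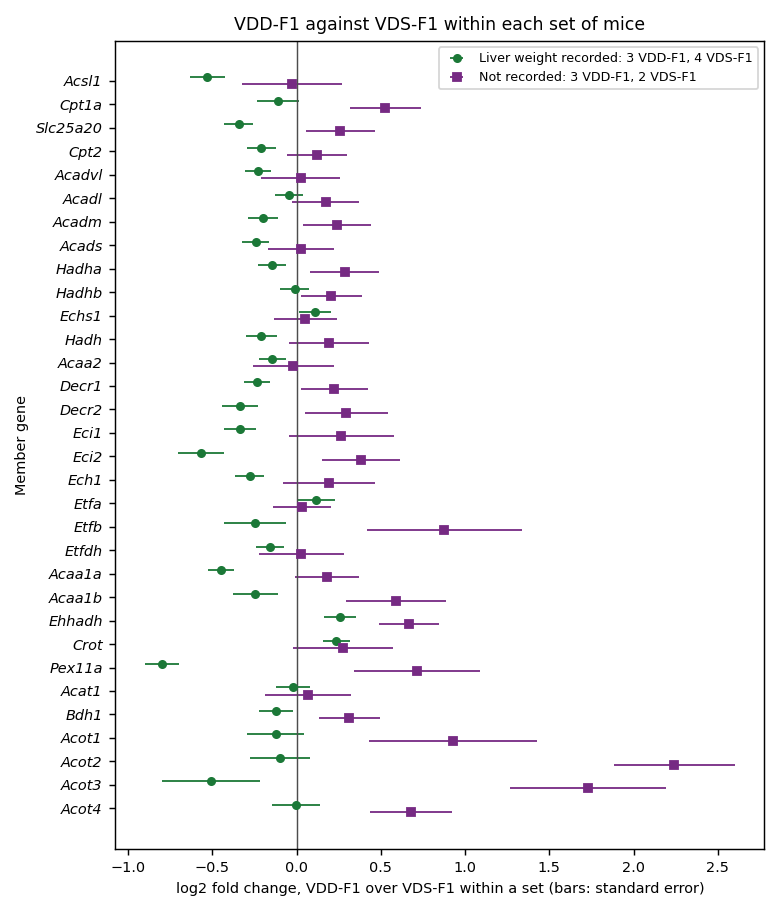
Log2 fold change of each member in VDD-F1 over VDS-F1 mice, fitted within the mice with a recorded liver weight (circles, 3 against 4 mice) and within those without (squares, 3 against 2 mice), with standard errors. Circles lie left of 0 for 28 members and squares right of 0 for 30, with the widest gap at Acot2.

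Acot2 showed the largest gap. Without a recorded weight it stood at 10.1, 12.4 and 6.63 CPM in VDD1, VDD2 and VDD3 and at 2.22 and 1.89 CPM in VDS1 and VDS2. With a recorded weight it stood at 5.77, 5.31 and 4.52 CPM in VDD4, VDD5 and VDD6 and at 5.43, 5.36, 5.07 and 6.37 CPM in VDS3 to VDS6. Every VDD-F1 value lay above both VDS-F1 values in the unrecorded set, and the groups overlapped in the recorded set. The log2 fold change was 2.24 (SE 0.36, 4.73-fold) in the unrecorded and -0.10 (SE 0.18) in the recorded set, a difference of -2.34 (SE 0.35, adjusted p = 0.0265, edgeR). This call was lost on leaving out any 1 of VDD4, VDD5, VDD6, VDS1, VDS2, VDS3, VDS4 or VDS5, with adjusted p-values from 0.0521 to 0.118, while the estimate stayed between -2.57 and -2.12 over all 12 left-out mice. Its neighbors on chromosome 12 had estimates in the same direction, -2.24 for Acot3 (adjusted p = 0.160), -0.68 for Acot4 (0.510) and -1.05 for Acot1 (0.571).

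Pex11a had estimates of opposite sign in the sets. Its values were 81.3, 30.9 and 53.0 CPM in VDD1 to VDD3 against 31.5 and 35.7 CPM in VDS1 and VDS2. In the recorded set they were 34.1, 34.4 and 34.6 CPM in VDD4 to VDD6 against 59.4, 64.5, 63.3 and 52.2 CPM in VDS3 to VDS6. The recorded groups were far apart, and in the unrecorded set VDD2 lay below both VDS-F1 mice. The log2 fold change was -0.80 in the recorded set (SE 0.10, 0.575-fold, adjusted p = 0.00048, edgeR on these 7 mice) and 0.71 in the unrecorded set (SE 0.37). The difference of -1.51 (SE 0.36) had an adjusted p of 0.178.

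Within the 7 mice with a recorded weight, 6 of the 32 members fell in VDD-F1 at an adjusted p under 0.05 by edgeR on these mice alone, against 5.11% of all genes, and 0 rose, against 5.87%. They were Acsl1 of activation, Slc25a20 of the shuttle, the auxiliaries Eci1 and Eci2, and Acaa1a and Pex11a of the peroxisome. No acyl-CoA dehydrogenase, hydratase or thiolase of the mitochondrial cycle, electron transfer gene, ketone body gene or thioesterase was among them. Acadvl, Acads, Acadm and Hadh of that cycle were, however, lower at an unadjusted p under 0.05. Their adjusted p-values in the same edgeR fit ran from 0.0769 to 0.182. None of the 6 passed the fold threshold. Without adjustment, 14 members were lower at a p under 0.05, against 12.6% of all genes, and 2 were higher, against 13.0%, the peroxisomal genes Ehhadh (log2 fold change 0.26) and Crot (0.24). The estimate was below 0 for 28 of the 32, against 49.0% of all genes, with a median of -0.20. Every VDD-F1 value lay below every VDS-F1 value for 14 members and above for 1, Crot, and 23.4% of all genes were apart in either direction. Acsl1 stood at 1115, 1168 and 890 CPM in VDD4 to VDD6 and at 1521, 1427, 1617 and 1553 CPM in VDS3 to VDS6 (0.692-fold, adjusted p = 0.00699). Eci2 stood at 85.8, 78.8 and 77.9 CPM against 114, 107, 156 and 103 CPM (0.675-fold, adjusted p = 0.0194). Acaa1a was 0.733-fold, Slc25a20 0.789-fold and Eci1 0.792-fold in VDD-F1, with adjusted p-values of 0.00425, 0.0256 and 0.0408 in the same edgeR fit.

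Cell markers also differed between the groups in these 7 mice. At an adjusted p under 0.05 in the same fit, the stellate cell genes Dcn, Col1a1 and Col3a1, the cholangiocyte genes Epcam and Spp1, the hepatocyte genes Alb, Trf, Ahsg and Tat and the red cell gene Alas2 were higher in VDD-F1, where 5.87% of all genes were. The macrophage genes Clec4f, Timd4 and Csf1r, the endothelial gene Stab2, the hepatocyte gene Apoa2 and the adipocyte gene Cfd were lower, where 5.11% of all genes were. The stellate cell list of 8 genes summed to 490.4 to 580.6 CPM in VDD4 to VDD6 and to 306 to 364 CPM in VDS3 to VDS6, and the macrophage list of 8 genes to 138.3 to 180.9 CPM against 187.5 to 242.9 CPM. The hepatocyte list of 12 genes summed to 127000 to 130000 CPM against 104500 to 113100 CPM. None of these sums overlapped between the groups, and the part of these cells in the members' values was not tested.

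In the 5 mice without a recorded weight, no member passed an adjusted p under 0.05 in edgeR, and 0% of all genes did. At an unadjusted p under 0.05, 5 members were higher in VDD-F1 (Cpt1a, Ehhadh, Acot2, Acot3 and Acot4), against 2.05% of all genes, and 0 were lower, against 1.72%. The estimate was above 0 for 30 of the 32, against 51.8% of all genes, with a median of 0.25. Every VDD-F1 value lay above both VDS-F1 values for 7 members, the 5 above with Etfb and Bdh1, and below for 0, and 18.5% of all genes were apart in either direction. Cpt1a, for example, stood at 589, 777 and 628 CPM in VDD1 to VDD3 and at 501 and 423 CPM in VDS1 and VDS2. Acaa1b stood at 882, 556 and 999 CPM against 452.7 and 624.8 CPM, so that VDD2 fell between the VDS-F1 mice. Ehhadh was higher in VDD-F1 in each set, 1.59-fold in the unrecorded and 1.20-fold in the recorded set. With 2 VDS-F1 mice, the values in this set rest on VDS1 and VDS2.

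**Figure D5:**
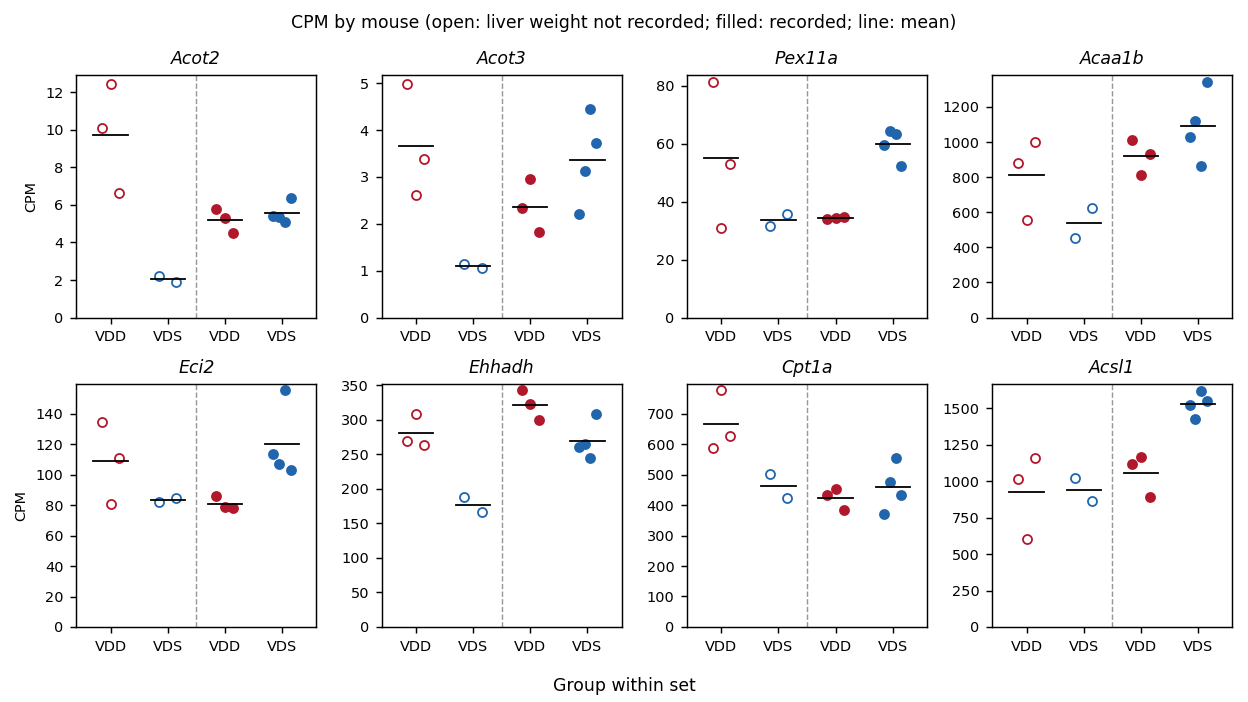
CPM of 8 members in each mouse, by group within the set without (open) and with (filled) a recorded liver weight, with a line at the mean. Acot2 and Acot3 are lowest in VDS1 and VDS2, Pex11a is 34.1 to 34.6 CPM in VDD4 to VDD6 against 52.2 to 64.5 CPM in VDS3 to VDS6, and Acsl1 is lower in VDD4 to VDD6 than in VDS3 to VDS6.

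Other enzymes of the pathway were counted in the same way. Of 44 further genes of oxidation and ketogenesis, 41 were tested and 0 were called between the diets by the edgeR test, while DESeq2's Wald test called 1, Abcd2. At an unadjusted p under 0.05 in edgeR, 4 (9.76%) were higher in VDD-F1 and 3 (7.32%) lower, close to the 9.55% and 6.29% of all genes. The higher ones were Abcd2, a peroxisomal transporter of very long-chain acyl-CoA (log2 fold change 1.29, adjusted p = 0.0841, edgeR), Oxct1, which activates ketone bodies for use (0.66), Acsl4, a synthetase for arachidonate (0.55), and Crat, the carnitine acetyltransferase (0.32). Abcd2 stood at 18.2 to 39.9 CPM in VDD-F1 and 4.06 to 17.6 CPM in VDS-F1, without overlap. The lower ones were Nudt7, a peroxisomal CoA hydrolase (-0.56), and the medium-chain synthetases Acsm1 (-0.31) and Acsm5 (-0.27). Between the sets, Bdh2 (0.91), Acadsb (0.55) and Ivd (0.45) were higher in mice with a recorded weight at an adjusted p under 0.05 in edgeR (7.32% of the 41, against 0.899% of all genes). For the difference of the diet effect between the sets, 4 of the 41 were lower and 4 higher in the recorded set at an unadjusted p under 0.05 (9.76% each, against 4.77% and 4.24% of all genes). That estimate was below 0 for 24 of the 41 (58.5%), with a median of -0.08. Within the recorded set alone, 9 of the 41 (22%) were lower in VDD-F1 at an adjusted p under 0.05, against 5.11% of all genes, and 3 (7.32%) higher, against 5.87%.

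Regulators and other PPARα targets were read beside the members. Of 21 regulators of oxidation, 2 (9.52%) were lower in VDD-F1 at an unadjusted p under 0.05, against 6.29% of all genes, the hepatocyte factor Hnf4a (-0.29) and the mediator subunit Med1 (-0.21), and 0 were higher, against 9.55%. Acaca, an acetyl-CoA carboxylase gene, was lower in the recorded set (log2 -1.35, adjusted p = 0.00247, edgeR with the diet in the fit). Of 16 PPARα targets outside oxidation, 4 (25%) were higher in VDD-F1 at an unadjusted p under 0.05, against 9.55% of all genes, the hormone gene Fgf21 (1.45), the fatty acid hydroxylases Cyp4a14 (1.11) and Cyp4a31 (0.80) and the fatty acid transporter Cd36 (0.90), with adjusted p-values from 0.0948 to 0.309. Fgf21 was also lower in the recorded set (log2 -1.80, adjusted p = 0.0462). For the difference of the diet effect between the sets, 9 of these 16 targets and 6 of the 21 regulators, Ppara among them, were lower in the recorded set at an unadjusted p under 0.05, against 4.77% of all genes. At the same threshold 0 of the targets and 1 of the regulators, Ppard, which encodes another PPAR receptor, were higher, against 4.24%. None of either list passed an adjusted p under 0.05 for this difference in edgeR over the 12 mice. Without VDD2, 5 of the targets (Vnn1, Fabp1, Cyp4a10, Mgll and Aldh3a2) and 1 of the regulators (Ppara) did, against 2.68% of all genes. Within the recorded set alone, 5 of the 21 regulators (23.8%) were lower in VDD-F1 at an adjusted p under 0.05, against 5.11% of all genes, and 0 higher. They were the PPAR partner Rxra (-0.38), the transcription factors Creb3l3 (-0.34) and Hnf4a (-0.46), Lpin1 (-1.69) and another acetyl-CoA carboxylase gene, Acacb (-0.77). Of the 16 targets, Vnn1 (-1.04) and Mgll (-0.64) were lower at that threshold and 0 higher. At an unadjusted p under 0.05 in that set the targets were split. Of the 16, 8 were lower in VDD-F1, against 12.6% of all genes, and 5 higher (Pdk4, Fgf21, Cyp4a14, Cd36 and Slc16a1), against 13.0%.

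Genes of feeding and fasting varied between the sets as well. Of 8 genes of the fed response, which encode lipogenic enzymes and their regulators, Fasn, Elovl6 and Pnpla3 were lower in the recorded set at an adjusted p under 0.05 (log2 -1.90, -1.20 and -3.57, edgeR), against 1.56% of all genes. Their list summed to 1904 to 4017 CPM in VDD2, VDS1 and the mice with a recorded weight, and to 7056, 8080 and 9784 CPM in VDD1, VDD3 and VDS2. Within the recorded set the list also stood apart by diet, at 1944, 1904 and 2193 CPM in VDD4 to VDD6 and at 3206, 2962, 2220 and 3406 CPM in VDS3 to VDS6, without overlap. Of the 7 fed genes tested there, Fasn (-0.83) and Thrsp (-2.003) were lower in VDD-F1 at an adjusted p under 0.05 (28.6%, against 5.11% of all genes), and 0 were higher. Of 8 fasting genes, Cdkn1a was higher in VDD-F1 at an unadjusted p under 0.05 (1.49, adjusted p = 0.0855 in edgeR, and called by DESeq2), and 4 (G6pc, Igfbp1, Tat and Ddit4) had a higher diet difference in the recorded set at the same threshold, against 4.24% of all genes. Within the recorded set alone, Tat (0.76) and Cdkn1a (1.89) were higher in VDD-F1 at an adjusted p under 0.05 (25% of the 8, against 5.87% of all genes), and the fasting list summed to 4232 to 7193 CPM in VDD-F1 and 3297 to 4935 CPM in VDS-F1. Tat is in both the fasting and the hepatocyte marker list. The feeding state at dissection was not given, and its part in the members' values was not tested.

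Markers of other cells were counted in the same fit, where at an unadjusted p under 0.05 between the diets 9.55% of all genes were higher and 6.29% lower in VDD-F1. By the diet contrast over all 12 mice at an unadjusted p under 0.05, 3 of 8 stellate cell markers were higher in VDD-F1 (and DESeq2 called Col1a1 and Col3a1), with sums of 329 to 912 CPM against 306 to 469 CPM in VDS-F1, and 3 of 5 tested cholangiocyte markers were higher, with sums of 23.9 to 116 CPM against 27.8 to 51.5 CPM. Of 8 macrophage markers 2 were lower (138 to 324 against 181 to 301 CPM), and of 8 endothelial markers 2 were lower and 1 higher (345 to 432 against 329 to 481 CPM). Of 12 hepatocyte markers 1 was higher. None of the lymphocyte markers tested passed (4.82 to 29.8 against 8.16 to 12.9 CPM), and 3 of 5 adipocyte markers, Adipoq, Retn and Lep, had at most 3 counts in all libraries together. Between the sets, 4 of 5 red cell markers were lower in mice with a recorded weight at an adjusted p under 0.05, against 1.56% of all genes, with sums of 237 to 484 CPM against 523 to 1370 CPM without overlap. At an unadjusted p under 0.05, 4 of 8 endothelial markers were higher in mice with a recorded weight, against 5.87% of all genes. Of 8 macrophage markers 1 was lower, against 7.99%, and all 8 estimates were below 0. The part of these cells in the members' values was not tested.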

How the data were processed

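Liver RNA of 6 VDD-F1 and 6 VDS-F1 mice was sequenced after removal of ribosomal RNA with a strand-keeping kit. Per the study's methods and the labels, the authors trimmed the reads, aligned them to mm10 (GRCm38) with STAR (version not given in the sources used here) and deposited raw counts of uniquely mapped fragments per gene, against GENCODE M15. The reverse-strand count (column 4) was used here. Symbols, positions and exon lengths came from GENCODE M21, which matched 52489 of 52636 gene IDs. Counts of 14275793 to 20815066 per library set the precision, which is lowest for Acot2 and Acot3.

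Genes whose mean count reached 12 were normalized by TMM and tested with edgeR 4.0.16 in R 4.3.3 (quasi-likelihood test, legacy form) with Benjamini-Hochberg adjustment over all genes tested, where the study's methods name DESeq2. A call needed an adjusted p under 0.05 and a log2 fold change beyond 1, and in fits with the set of mice an adjusted p under 0.05. The scripts were tested on simulated counts with known changes. The replicate numbers mark different mice, and the deviations of same-numbered mice correlated between -0.08 and 0.10, so they were not treated as pairs.

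All 32 members are named. Of the other lists, genes are named that had an unadjusted p under 0.05 between the diets or were called between the sets, at most 8 a list. Marker lists are given as sums. Outside this rule, further genes and single markers are named from the difference between the sets, the recorded set alone, DESeq2 or low counts. The members, lists and sets were chosen with earlier results of these data known. Alternatives were DESeq2 1.42.0, voom with quality weights in limma 3.58.1, DESeq2 size factors, the newer quasi-likelihood form, other filters, the count without strand, a covariate for the set, both sets fitted separately, single mice left out and a replicate block. For the difference between the sets, and for the groups without VDD2, they were chosen after seeing the data. Figures were drawn with matplotlib 3.10.9.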

Additional observations from a re-analysis of the deposited data

Results flagged for a closer look

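Of 64 groups of 6 values (32 members in each diet group), 2 held a mouse far from the other 5 by Dixon's test, where chance flags about 1 in 20 groups. Hadhb, the beta subunit of the trifunctional protein, stood at 141.0 CPM in VDD3, above the other VDD-F1 mice. Crot, the carnitine octanoyltransferase, stood at 283.0 CPM in VDS2, below the other VDS-F1 mice. Acot2, the mitochondrial thioesterase, had a diet difference that was lower by a log2 value of -2.34 in the mice with a recorded liver weight than in those without, with an adjusted p of 0.0265 in the edgeR test of the difference itself. Its VDS1 and VDS2 values were under those of the other 10 mice. The call was lost on leaving out any 1 of VDD4 to VDD6 or VDS1 to VDS5.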

How the results depend on the processing

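With the fold threshold, no member was called between the diets under any alternative, while DESeq2 called 1 of the other enzymes, Abcd2. At an adjusted p under 0.05 alone, 6 members passed in the recorded set, all lower in VDD-F1, against 5.11% of all genes. Under each other alternative 0 did. Of members lower in VDD-F1 at an unadjusted p under 0.05 (1), there were 14 in the recorded set alone, 0 in the unrecorded set alone, 0 with the set as a covariate, 4 with voom, and 0 to 4 on leaving out single mice. In the same order, 12.6%, 1.72%, 7.32%, 10.5% and 4.70% to 7.87% of all genes were lower, and 6.29% in the reported fit. Of those higher (2), there were 5 in the unrecorded set alone, 1 with the replicate block, 1 with the set as a covariate, 1 with voom, and 0 to 2 on leaving out single mice. The members' median log2 fold change was -0.20 in the recorded and 0.25 in the unrecorded set, and -0.10 to 0.02 without single mice. Other enzymes at an unadjusted p under 0.05 (7) numbered 20 in the recorded set, 2 in the unrecorded set, 13 with voom and 5 to 10 without single mice. Of all genes, 12.6% were lower and 13.0% higher in the recorded set, 1.72% and 2.05% in the unrecorded set, and 10.5% and 12.3% with voom. The shares without single mice are those given above. Members called between the sets (0) numbered 2 each with DESeq2, without a filter and with voom (against 4.67%, 2.24% and 2.79% of all genes, and 2.46% in the reported fit), and 0 to 2 without single mice (2 without VDD1 or VDD2, against 1.87% and 4.03%). Members with a difference of the diet effect between the sets (1) numbered 3 with DESeq2, 6 without a filter, 2 with voom and 0 to 10 without single mice, against 1.11%, 1.49%, 0.498% and 0.0241% to 2.68% of all genes. The count at an unadjusted p (16) ran from 11 to 24, against 3.74% to 8.29% of all genes. Both the 24 and the 8.29% were those without VDD2. The Acot2 estimate ran from -2.57 to -2.12 without single mice. The causes were not tested. Leaving out a mouse also leaves fewer samples.

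The replicate block was run for the diet contrast only. It gave a median of -0.02 and 1 lower member and changed no call there, and the numbers pair no mice. With 3 against 2 mice, differences in the unrecorded set are imprecise, and Acot3 had as few as 18 counts in a mouse.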
